A study of Mus musculus with 16 samples.

Results

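Nqo1, its paralog Nqo2 and enzymes of the pathways that supply NADPH were examined in C2C12 myotubes with and without electrical pulse stimulation. The 9 genes described, taken by mouse symbol, are the quinone reductases Nqo1 and Nqo2, the malic enzymes Me1 and Me2, the pentose phosphate pathway enzymes Pgd, Pgls, Taldo1 and Tkt, and the isocitrate dehydrogenase Idh1. The deposited table has 48432 gene identifiers, and all 9 were among the 13987 genes tested. C2C12 is an established line of mouse myoblasts that fuse into multinucleate muscle fibres when serum is lowered. Cells at passage 4 to 8 were differentiated for 5 days on gelatin in medium with horse serum. The control group of 4 libraries received no stimulation, and the EPS group of 4 libraries received 6 ms pulses, 1 Hz in rate and 2.75 V/mm in strength, with a 0.6% duty cycle and a polarity reversed at 0.5 Hz. Both groups are the same line, for which the labels name no genetic change, grown in a dish without other tissue. Total RNA was sequenced after a stranded library preparation, and no source used here gives how long the cells were stimulated.

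NQO1 is a cytosolic flavoenzyme that reduces quinones by a pair of electrons at once, taking them from NADPH or NADH, and so avoids the reactive semiquinone. Its gene is a classic target of the transcription factor NRF2, and the aryl hydrocarbon receptor can act on it too. NADPH in the cytosol comes mainly from the oxidative branch of the pentose phosphate pathway, from malic enzyme and from isocitrate dehydrogenase, and in muscle it also serves glutathione and thioredoxin reduction, fatty acid synthesis and NADPH oxidases.

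Sequencing depth, in M fragments (M stands for mega), was 18.6, 0.354, 12.6 and 20.7 in control replicates 1 to 4 and 20.1, 14.7, 18.1 and 20.7 in EPS replicates 1 to 4. Control replicate 2 stands apart in depth. EPS replicates 1 and 2 stand apart from EPS replicates 3 and 4. A chi-square per degree of freedom between the counts of a pair of libraries was 7.06 for EPS 3 and 4, 54.7 for EPS 1 and 2, and 97.8 to 178 across. In control it was 9.38 for 3 and 4, and 27.7 and 38.5 for 1 against 3 and 4. Pairs with the shallow control 2 gave 8.78 to 9.80, over 8302 to 8541 genes against 13773 to 13983 in the other pairs. The measure depends on depth, so these values cannot be set beside those of the deeper pairs. Across genes, the difference from the control mean in log2 CPM had a correlation with log2 transcript length of 0.11 and 0.16 in EPS 1 and 2 and -0.17 and -0.14 in EPS 3 and 4. In control replicates 1 to 4 the correlation was -0.02, 0.14, -0.17 and -0.16, so replicates 3 and 4 were the lower in both groups. The part of this split in the results was not tested beyond the length and GC offsets and the libraries left out in turn. In control replicate 2, a count of 0 allows up to 3 fragments. These equal 8.51 CPM (counts per M fragments, with library sizes scaled by TMM), against 0.138 to 0.240 CPM in the other 7 libraries. These limits cover counting error only. All 8 myotube markers checked (Myog, Mymk, Ckm, Acta1, Myh3, Tnnt3, Des, Mef2c) were expressed, with a summed level of 22742 to 26167 CPM in control and 13544 to 18984 CPM in EPS. Their log2 fold changes were all negative, with a median of -0.70, and 1 of the 8, Mef2c, passed the test (-0.91, adjusted p = 0.0287, edgeR's quasi-likelihood test). The 6 markers of undifferentiated or cycling myoblasts (Pax7, Myf5, Mki67, Top2a, Ccnb1, Cdk1) also had negative log2 fold changes, with a median of -0.41, and none passed. Markers of other cell types (Ptprc, Pecam1, Epcam, Adipoq, Cdh5, Lyz2) summed to 0 to 0.629 CPM in control and 0.323 to 11.8 CPM in EPS. Most of the EPS maximum was Pecam1, at 10.8 CPM in replicate 2, while Ptprc was at 0 in control and at most 0.309 CPM in EPS. The part of these differences in the results was not tested. In bulk RNA, fewer cells of a type and less RNA per cell cannot be told apart.

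Of the 9 genes, 4 rose with EPS: Nqo1, Pgd, Me1 and Taldo1. None fell, and Nqo2, Me2, Pgls, Tkt and Idh1 did not pass the threshold of an adjusted p of 0.05. Of all genes tested, 2.30% passed in the upward direction and 0.758% in the downward direction, 322 and 106 genes, together 3.06%. The median log2 fold change of the 9 genes was 0.97, beside 0.01 over all genes tested. The control and EPS libraries did not overlap in CPM for 5 of the 9 genes, the 4 that rose and Tkt, and for 14.1% of all genes tested. The lowest level of any of the 9 in any library was 3.73 CPM, above the 0.550 CPM that the filter on low counts required, so none passed that filter through 1 group alone. The 4 calls were also made without the shallow control replicate 2. The count fell to 3 without control replicate 1, 3 or 4, where Me1 was lost each time.

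**Figure D1:**
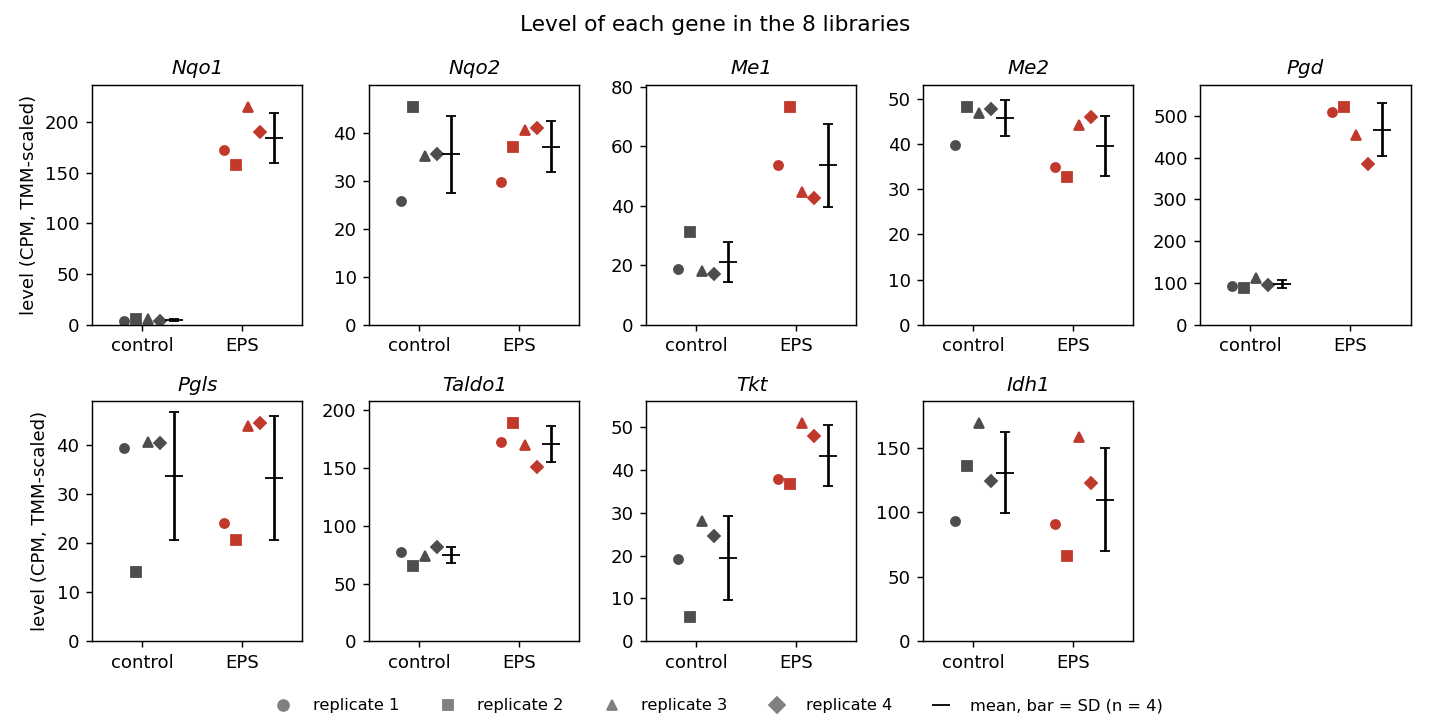
Level of each of the 9 genes in CPM (vertical axis, linear, from 0, scaled separately for each gene) in the 4 control and 4 EPS libraries. Symbols give the replicate number, and the bar gives the mean and SD (n = 4). The groups are apart for Nqo1, Me1, Pgd, Taldo1 and Tkt and overlap for Nqo2, Me2, Pgls and Idh1.

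The sequence just before the start site, where promoter elements of these genes would lie, is shown for the 4 genes that rose and for Nqo2, the paralog of Nqo1 that did not pass the test. Each is the 150 bases before the RefSeq start (GRCm38.p6, the build also called mm10), 5′ to 3′ on the gene's strand. Capitals mark matches to 3 motifs searched on both strands. TGACNNNGC is a core of the antioxidant response element, which NRF2 binds. GCGTG is the core that the aryl hydrocarbon receptor binds. The last motif, TATAAA, is found in many promoters close to the start.
Nqo1, chr8:107403206-107403355, minus strand: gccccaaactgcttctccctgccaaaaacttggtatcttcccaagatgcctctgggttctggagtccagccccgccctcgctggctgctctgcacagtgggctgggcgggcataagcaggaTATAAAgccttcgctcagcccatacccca
Nqo2, chr13:33964509-33964658, plus strand: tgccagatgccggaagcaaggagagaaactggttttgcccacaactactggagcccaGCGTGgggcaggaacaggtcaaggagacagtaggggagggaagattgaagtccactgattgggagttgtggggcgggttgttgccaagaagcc
Me1, chr9:86695915-86696064, minus strand: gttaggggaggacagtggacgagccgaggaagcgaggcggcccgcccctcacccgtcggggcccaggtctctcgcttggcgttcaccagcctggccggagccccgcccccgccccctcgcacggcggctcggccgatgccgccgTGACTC
Pgd, chr4:149166706-149166855, minus strand: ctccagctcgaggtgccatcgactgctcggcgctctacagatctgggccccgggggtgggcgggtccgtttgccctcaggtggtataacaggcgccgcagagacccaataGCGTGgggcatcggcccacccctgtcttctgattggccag
Taldo1, chr7:141392010-141392159, plus strand: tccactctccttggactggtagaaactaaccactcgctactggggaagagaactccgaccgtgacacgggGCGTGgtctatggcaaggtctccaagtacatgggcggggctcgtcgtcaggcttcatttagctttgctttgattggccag
The search covered 8 of the 9 genes, over the 250 bases before each RefSeq start. Me2 was left out of the search, so its promoter was not examined. Among the 8, TATAAA was found in Nqo1 alone, 29 bases before the start, and in 12.4% of the 32851 promoter windows of all genes. TGACNNNGC was found in Me1 alone, from 6 bases before the start to 3 bases past it, so the printed window ends inside the match (TGACTCAGC). It was in 10.2% of all windows, where only matches wholly within the 250 bases were counted. By that rule the Me1 match would not count, so the share is not its direct background. GCGTG was in Nqo2, Pgd, Pgls, Taldo1 and Tkt and in 28.2% of all windows. A match is a description of letters and not a bound site, and these windows leave out more distant elements. Nqo2, Me1, Pgd and Idh1 have 2 RefSeq windows each, and only the window nearest the GENCODE start was searched. The shares over all genes count every window. The RefSeq start can differ from the GENCODE start of the gene. It lies inside the GENCODE gene for Pgd (149166705 against 149166771), Me1 (86695914 against 86695953) and Tkt (30549131 against 30548359), among others. The windows of these genes therefore overlap the gene itself.

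Nqo1 is on the minus strand of chromosome 8 (107388225 to 107403206, mm10) and has 6 exons. Its level was 3.73, 5.67, 5.97 and 4.01 CPM in control replicates 1 to 4 and 172, 158, 215 and 190 CPM in EPS replicates 1 to 4. Every EPS library was far above every control library. Control replicate 2 held 2 fragments of it, and the other 3 controls held 69 to 84 fragments against 1973 to 4167 in EPS. The mean rose from 4.85 ± 1.14 to 184 ± 24.7 CPM (SD, n = 4 each), a log2 fold change of 5.33 (SE 0.23, approximate 95% interval 4.76 to 5.90, 40.2-fold), with an adjusted p of 1.65e-06 in edgeR's quasi-likelihood test. By p-value it was number 2 of the 13987 genes tested, and by fold change number 16. Leaving out any 1 library gave 5.20 to 5.52.

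Nqo2, on chromosome 13 (33964687 to 33988443, plus strand), encodes the related reductase that takes its electrons from dihydronicotinamide riboside and not efficiently from NADPH. Its level was 25.7, 45.4, 35.2 and 35.6 CPM in control and 29.6, 37.0, 40.6 and 41.0 CPM in EPS. The groups overlapped, with EPS replicate 1 below 3 of the 4 controls. The log2 fold change was 0.14 (SE 0.19, interval -0.33 to 0.61, adjusted p = 0.756, edgeR). It shares 762 exonic bases with Serpinb6a on the opposite strand, whose log2 fold change was 0.02. Serpinb6a held 69106 fragments over all 8 libraries, and Nqo2 held 16 to 890 in each library. Whether the counting used strand is stated in no source used here. How far Serpinb6a fragments entered the level of Nqo2, and so its ratio to Nqo1, was not tested.

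Per length, Nqo1 was the lower of the 2 paralogs in all 4 controls (2.60 to 4.36 against 6.30 to 9.74 FPKM, fragments per kilobase of transcript and M fragments). It was the higher in all 4 EPS libraries (114 to 156 against 7.31 to 11.1 FPKM). The log2 ratio of Nqo1 to Nqo2 in CPM, which is not scaled by length, was -2.74, -2.97, -2.53 and -3.11 in control and 2.54, 2.09, 2.40 and 2.21 in EPS. The groups were apart by many times the spread within either. The ratio differed by 5.15 between groups, with an exact two-sided permutation p of 0.0286, which is the smallest that 4 against 4 libraries can give (0.0286 also after adjustment over the 2 ratios tested). Over the 4 same-numbered pairs, an exact sign-flip test with the replicate block gave p = 0.125 for the same difference, the smallest that 4 pairs allow, so no paired call is possible.

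Me1, the cytosolic NADP-dependent malic enzyme, turns malate into pyruvate and NADPH and is on chromosome 9 (86581371 to 86695953, minus strand). Its level was 18.6, 31.2, 18.0 and 16.9 CPM in control and 53.8, 73.3, 44.7 and 42.5 CPM in EPS. The lowest EPS library was above the highest control library, and replicate 2 was the highest in both groups. Only 11 fragments lie behind the control value of that replicate. The mean rose from 21.2 ± 6.71 to 53.6 ± 14.0 CPM (SD, n = 4 each), a log2 fold change of 1.49 (SE 0.23, interval 0.93 to 2.06, 2.82-fold, adjusted p = 0.00783, edgeR). The adjusted p was 0.0527, 0.0555 and 0.0544 without control replicate 1, 3 and 4, with log2 fold changes of 1.32 to 1.58 over all 8 libraries left out in turn.

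Me2, on the minus strand of chromosome 18, encodes a mitochondrial malic enzyme that uses mainly NAD. Its level was 39.8, 48.2, 46.9 and 47.7 CPM in control and 34.8, 32.8, 44.3 and 46.0 CPM in EPS. The groups overlapped through control replicate 1. The log2 fold change was -0.20 (SE 0.17, interval -0.60 to 0.21, adjusted p = 0.574, edgeR). EPS was the lower in 4 of 4 same-numbered pairs, by -0.19, -0.56, -0.08 and -0.05 on the log2 scale. The largest difference, in pair 2, uses the shallow control, with 17 fragments of Me2. With the replicate block Me2 did not pass (-0.16, adjusted p = 0.472, edgeR).

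The log2 ratio of Me1 to Me2 in CPM was -1.09, -0.63, -1.38 and -1.49 in control and 0.63, 1.16, 0.01 and -0.11 in EPS. All EPS ratios were above all control ratios. The ratio differed by 1.57 between groups (exact two-sided permutation p = 0.0286, again the smallest possible). The exact sign-flip test over the 4 pairs again gave its smallest p, 0.125.

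6-phosphogluconolactonase, encoded by Pgls, hydrolyses the lactone formed in the oxidative pentose phosphate branch, and releases no NADPH. Pgls is on chromosome 8 (71592176 to 71601092, plus strand). Its level was 39.2, 14.2, 40.6 and 40.4 CPM in control and 24.0, 20.7, 43.7 and 44.3 CPM in EPS. The spread within each group was wider than the distance between them, with EPS replicates 1 and 2 low and control replicate 2 at 5 fragments. The log2 fold change was -0.15 (SE 0.30, interval -0.89 to 0.59, adjusted p = 0.840, edgeR), an interval that leaves room for a change of either sign. Pgls shares 776 exonic bases with Fam129c on the same strand, a gene with 274 fragments over all 8 libraries.

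Pgd encodes 6-phosphogluconate dehydrogenase, which makes NADPH in the oxidative branch and yields ribulose 5-phosphate. The gene is on chromosome 4 (149149991 to 149166771, minus strand). Its level was 92.7, 88.0, 111 and 95.9 CPM in control and 509, 522, 454 and 384 CPM in EPS. The groups were far apart, with the lowest EPS library, 384 CPM, above the highest control, 111 CPM. The mean rose from 96.9 ± 10.1 to 467 ± 62.8 CPM (SD, n = 4 each), a log2 fold change of 2.26 (SE 0.17, interval 1.84 to 2.68, 4.78-fold, adjusted p = 7.6e-05, edgeR). Pgd was number 12 of all genes by p-value. Leaving out any 1 library gave 2.19 to 2.32, with the highest adjusted p at 0.00132.

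The non-oxidative branch returns pentose phosphates to glycolysis through transaldolase and transketolase. Taldo1, encoding transaldolase, is on chromosome 7 (141392199 to 141402968, plus strand). Its level was 77.0, 65.3, 73.6 and 81.8 CPM in control and 173, 189, 170.3 and 151 CPM in EPS. The groups did not overlap and the spread within each was narrow. The mean rose from 74.4 ± 6.96 to 171 ± 15.6 CPM (SD, n = 4 each), a log2 fold change of 1.18 (SE 0.15, interval 0.82 to 1.53, 2.26-fold, adjusted p = 0.00302, edgeR). Leaving out any 1 library gave 1.11 to 1.21, with the highest adjusted p at 0.024.

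Tkt, encoding transketolase, is on chromosome 14 (30548359 to 30574720, plus strand). Its level was 19.3, 5.67, 28.1 and 24.5 CPM in control and 37.8, 36.7, 50.9 and 47.9 CPM in EPS. All EPS libraries were above all control libraries, and the lowest, control replicate 2, had 2 fragments. The log2 fold change was 0.97 (SE 0.26, interval 0.34 to 1.59), with an unadjusted p of 0.00344 and an adjusted p of 0.0744 in edgeR's quasi-likelihood test, so Tkt did not pass. With the replicate number as a block it passed (1.00, adjusted p = 0.00343, edgeR), as did 7.31% of all genes in the upward direction. It also passed in DESeq2 (0.97, adjusted p = 0.0115) and with offsets for transcript length and GC content (0.88, adjusted p = 0.0392, edgeR). Tkt did not pass in edgeR with RLE scaling (adjusted p = 0.0702) or without the low-count filter (adjusted p = 0.0724). In limma on log2(FPKM + 0.1) and log2(FPKM + 1) the adjusted p was 0.183 and 0.139. With any single library left out Tkt did not pass either (adjusted p 0.0518 to 0.220, edgeR).

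Idh1 encodes the NADP-dependent isocitrate dehydrogenase of cytosol and peroxisomes and is on chromosome 1 (65158616 to 65186500, minus strand). Its level was 93.3, 136, 169 and 124 CPM in control and 90.7, 66.4, 159 and 123 CPM in EPS. The groups overlapped over most of their range. The log2 fold change was -0.25 (SE 0.28, interval -0.92 to 0.43, adjusted p = 0.684, edgeR). EPS was the lower in 4 of 4 same-numbered pairs, but 3 of the differences were small, at -0.04, -0.09 and -0.01 on the log2 scale, beside -1.03 in pair 2, which holds the shallow control.

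**Figure D2:**
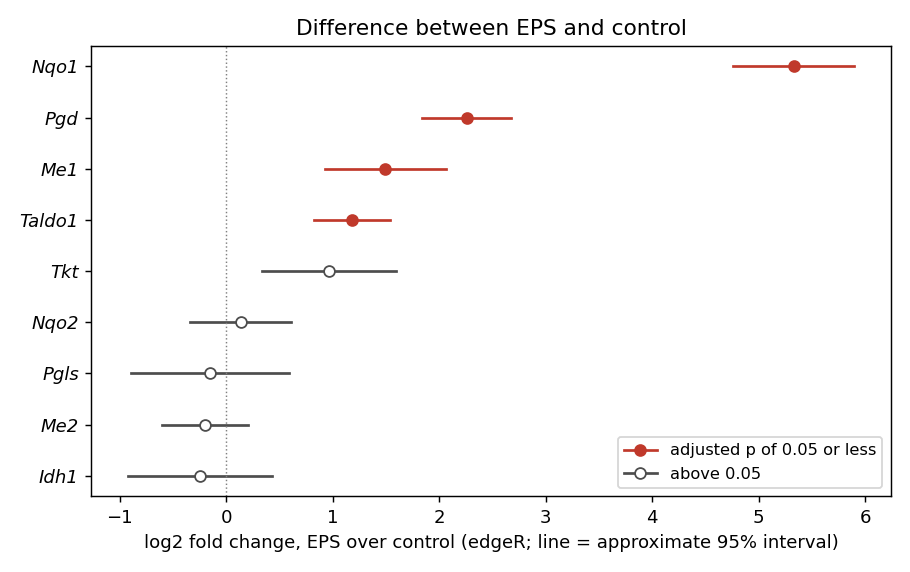
Log2 fold change of EPS over control for the 9 genes (horizontal axis) with its approximate 95% interval, ordered by size. Filled red points have an adjusted p of 0.05 or less. The intervals of Nqo2, Pgls, Me2 and Idh1 span 0, and that of Tkt (0.34 to 1.59) does not, although its adjusted p was 0.0744.

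Levels of different genes were set side by side only per length, in the deposited FPKM. In control the order of the mean FPKM was Idh1 (54.9), Taldo1 (52.0), Pgd (41.4), Pgls (36.3), Me2 (17.5), Nqo2 (7.99), Me1 (6.99), Tkt (4.72) and Nqo1 (3.40). Neighbours in this order overlapped in their range over libraries, except Taldo1 and Pgd, Pgls and Me2, and Me2 and Nqo2. In EPS the order was Pgd (192), Nqo1 (127), Taldo1 (114), Idh1 (48.1), Pgls (34.0), Me1 (18.6), Me2 (15.05), Tkt (10.6) and Nqo2 (9.60), and among neighbours only Taldo1 and Idh1 did not overlap. Nqo1 went from the lowest place to the second, 3.40 ± 0.908 to 127 ± 19.6 FPKM (SD, n = 4 each). Pgd, in the oxidative branch, was at 41.4 ± 5.94 FPKM in control and 192 ± 38.9 FPKM in EPS, and its neighbour in the branch, Pgls, at 36.3 ± 6.54 and 34.0 ± 11.7 FPKM.

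**Figure D3:**
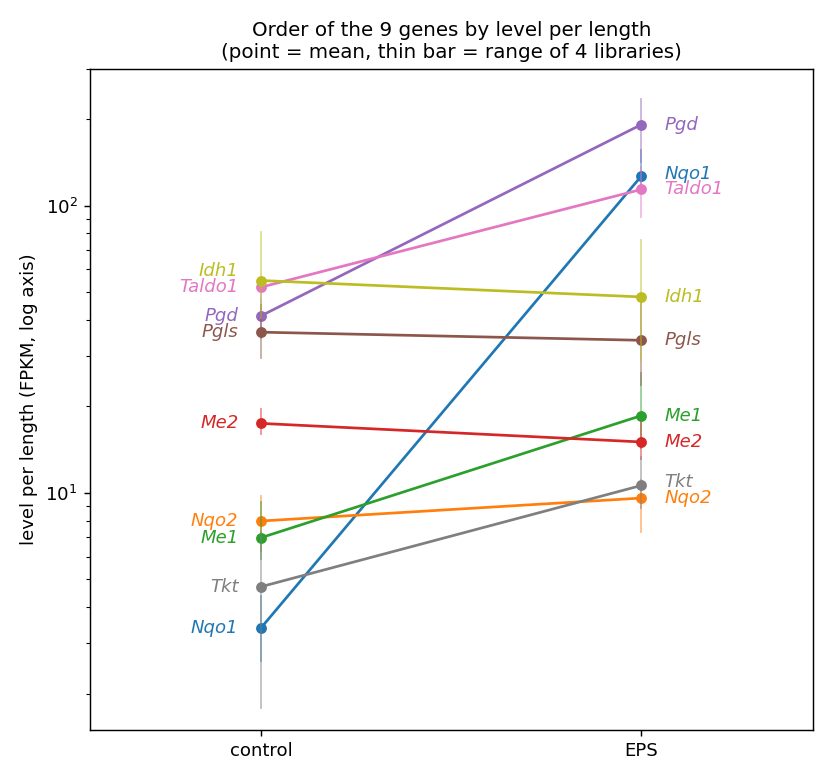
Mean level per length of the 9 genes in FPKM (vertical log axis) in control and EPS, with lines joining the same gene and thin bars for the range over 4 libraries. The line of Nqo1 climbs from the lowest place (3.40) to the second (127), and the ranges of Idh1, Pgls, Me2 and Nqo2 overlap between the groups.

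Genes next to these in NADPH metabolism were described in 5 lists with 40 genes, of which 38 were tested. Of these, 5 rose and none fell, with 0.08 as the median on the log2 scale. Over all genes tested, 2.30% rose and 0.758% fell, so few falls would be met in lists of this size. Of the 10 other NADP-reducing enzymes (Idh2, Me3, Nnt, Mthfd1, Mthfd2, Mthfd2l, Aldh1l1, Aldh1l2, Glud1, H6pd) none passed, and their median was 0.03. The most abundant per length, the glutamate dehydrogenase Glud1, was at 172 ± 13.3 CPM in control and 201 ± 17.0 in EPS (0.23, adjusted p = 0.426, edgeR). Of the 8 other pentose phosphate genes, 6 were tested and none passed, with a median of 0.03. Rpe, the epimerase between the branches, differed by 0.07 on the log2 scale (adjusted p = 0.866, edgeR). Tktl1 and Tktl2, the transketolase-like genes, held 0 fragments in every library. Neither NAD kinase passed, and Nadk, which makes the cytosolic NADP, differed by 0.08 on the log2 scale (adjusted p = 0.861, edgeR).

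Of the 9 other quinone reductases, 1 rose, beside 2.30% of all genes tested, and the median was -0.12. That gene was Cbr3, a carbonyl reductase, at 4.82, 0, 4.72 and 3.20 CPM in control and 22.5, 16.7, 25.1 and 25.2 CPM in EPS (log2 fold change 2.46, SE 0.29, adjusted p = 0.00229, edgeR). The groups did not overlap, though the 0 of control replicate 2 allows up to 8.51 CPM. Its neighbour in function Cbr1 was at 20.3 ± 3.64 CPM in control and 17.9 ± 4.44 in EPS (-0.10, adjusted p = 0.938, edgeR). Por, the cytochrome P450 reductase, was higher in EPS by 0.72 on the log2 scale (adjusted p = 0.0582, edgeR). It passed with the replicate block (0.68, adjusted p = 0.0155, edgeR), in DESeq2 (0.71, adjusted p = 0.0136) and without EPS replicate 4 (0.79, adjusted p = 0.049, edgeR). Por did not pass with length and GC offsets (0.51, adjusted p = 0.347, edgeR), with RLE scaling, without the low-count filter or in limma on FPKM. Without any of the other libraries it did not pass either (adjusted p up to 0.202, edgeR).

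Of the 11 NADPH-using reductases, 4 rose and none fell, beside 2.30% and 0.758% of all genes tested, and the median was 0.56. Glutathione reductase (Gsr) rose from 42.01 ± 5.76 to 130 ± 16.5 CPM (1.61, SE 0.17, adjusted p = 0.000901, edgeR). Biliverdin reductase B (Blvrb) was at 8.87, 0, 10.5 and 8.83 CPM in control and 61.0, 78.2, 63.6 and 51.8 CPM in EPS (2.84, SE 0.28, adjusted p = 0.000641, edgeR). Ptgr1, which reduces prostaglandins and lipid enals, rose from 27.0 ± 3.81 to 75.1 ± 9.32 CPM (1.49, SE 0.17, adjusted p = 0.00199, edgeR). Thioredoxin reductase 1 (Txnrd1), named after its values were seen as the remaining called gene, rose from 143 ± 18.1 to 1208 ± 774 CPM (3.10, SE 0.40, adjusted p = 0.0034, edgeR), with EPS replicate 2 at 2316 CPM. Txnrd3 passed only with the replicate block (0.58, adjusted p = 0.0285, against 0.56 and 0.0921 without it). The fatty acid synthase Fasn, a large consumer of NADPH, was at 356 ± 107 CPM in control and 308 ± 33.4 in EPS (-0.23, adjusted p = 0.643, edgeR). Cbr1, Por, Txnrd3 and Fasn were named after their values were seen.

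**Figure D4:**
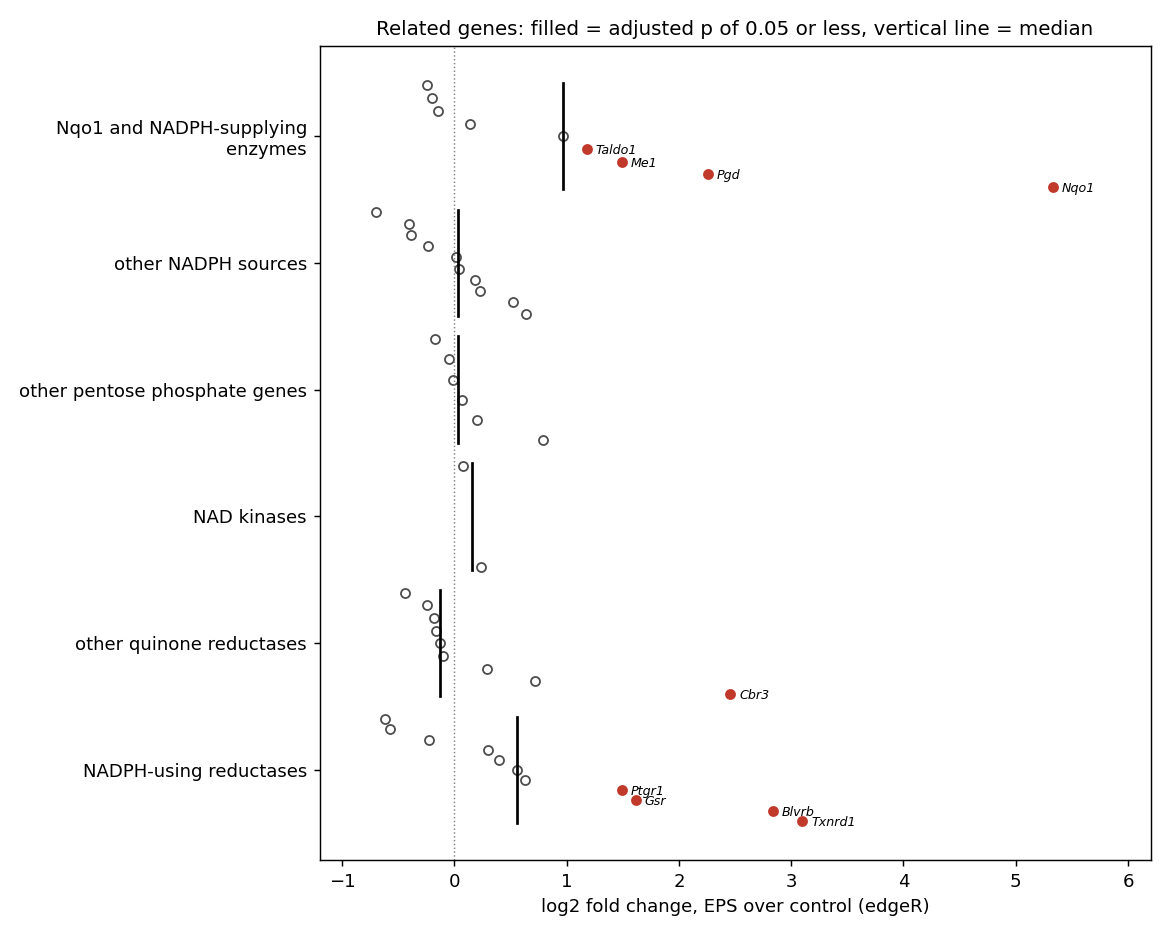
Log2 fold change of EPS over control (horizontal axis) for each tested gene of the 9 described and of the 5 lists of related genes. Filled red points have an adjusted p of 0.05 or less and are named, and vertical lines give each list's median. The 5 related genes that rose are Cbr3 and 4 of the NADPH-using reductases, while the other NADPH sources lie between -0.70 and 0.64.

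The 5 genes outside the group whose log2 CPM followed Nqo1 most closely, by Pearson's r over the 7 libraries other than control replicate 2 and among 10797 genes with a mean of at least 5 CPM, were Gsta4 (0.999), Aldh3a1 (0.998), Esd (0.996), Gsta2 (0.996) and Slc48a1 (0.995). With 3 control and 4 EPS libraries, r rests mainly on the distance between the groups, and it is given as a description. Gsta4, a glutathione transferase for lipid aldehydes, was at 11.1 ± 2.36 CPM in control and 362 ± 58.4 in EPS (5.14, SE 0.22). Aldh3a1, an aldehyde dehydrogenase, was at 5.98 ± 2.15 and 438 ± 92.0 CPM (6.39, SE 0.30). Esd, the S-formylglutathione hydrolase, was at 121 ± 13.6 and 594 ± 38.3 CPM, and the heme transporter Slc48a1 at 39.9 ± 2.19 and 283 ± 40.3 CPM. Gsta2, which has near-identical relatives, held 0 to 2 fragments in each control library and 10.3 to 14.3 CPM in EPS. With means of 0.07 CPM in control and 11.8 CPM in EPS, it met the mean of at least 5 CPM through the EPS group alone.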

How the data were processed

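RNA of 4 control and 4 EPS libraries was measured. The 16 deposited samples are these 8 libraries with 2 lanes each, grouped by title, and the deposited table has 1 value per gene and library. Alignment and counting tools in the submitters' processing notes are Cuffdiff 2.2.1, Cufflinks and STAR 2.5.1, with the mouse build mm10. Per the file headers, the authors' table is Cuffdiff output with estimated counts (fragments, unscaled) and FPKM. No source used here gives their strand setting or annotation. The deposited counts were rounded (93.3% of those above 0 were whole).

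In 46 genes, none of them a member, the table marks the estimate as skipped, and they were left out. Genes were filtered with filterByExpr by group (minimum count 10, minimum total 15), scaled by TMM and tested over all 8 libraries by edgeR's quasi-likelihood test (R 4.3.3, edgeR 4.0.16, limma 3.58.1), with Benjamini-Hochberg adjustment over 13987 genes and a threshold of 0.05. The F statistic gave the standard errors of fold changes and their 95% intervals, which are therefore approximate. Fitted fold changes need not equal the ratio of mean CPM. A prior count of 2 was used for log2 CPM. Deposited FPKM served for levels between genes and for limma on log2(FPKM + 0.1) and log2(FPKM + 1). Other alternatives were DESeq2 1.42.0, RLE scaling, no filter, length and GC offsets, each library left out, and the replicate block. The tests were checked on simulated data.

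Whether the libraries of a group are separate cultures is not stated in the labels. The p-values therefore cover just the spread among these 8 libraries, and part of it or all of it may be technical. Same-numbered control and EPS libraries deviated together from their group means (r = 0.30, 0.21, 0.29 and 0.30 for numbers 1 to 4). The numbers from the titles were therefore used as pairs in the replicate block, the sign-flip tests and the differences within pairs. The main calls do not use this pairing. Control 4 with EPS 3 (0.25) and control 3 with EPS 4 (0.23) were about as high, and the other differently numbered pairs were between -0.29 and 0.0056, so numbers 3 and 4 are not told apart by this check.

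The members and lists were chosen with earlier results of these data known. Of the 10 members 9 are described, and 1 member and single genes of 2 other lists are not reported here. Named genes are the 9 members, up to 3 called genes per related list by adjusted p (or else its most abundant gene by FPKM), and the 5 genes most like Nqo1. Positions come from GENCODE on mm10 and promoters from RefSeq.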

Additional observations from a re-analysis of the deposited data

Results flagged for a closer look

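Each group of 4 libraries was screened for a highest or lowest library far from the others, in 48 groups of values, and 4 were found. Chance alone gives about 1 in 20 groups. Control replicate 2, the shallow library, stood apart in 3 of them. Me1 was at 31.2 CPM there, resting on 11 fragments, against 16.9 to 18.6 CPM in the other controls. Pgls was at 14.2 CPM there, resting on 5 fragments, against 39.2 to 40.6 CPM. Blvrb was at 0 CPM there, with 0 fragments, against 8.83 to 10.5 CPM. The fourth was Me2 in control replicate 1, at 39.8 CPM on 735 fragments, against 46.9 to 48.2 CPM in the other controls.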

How the results depend on the processing

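Nqo1, Pgd and Taldo1 passed in every alternative run, and no alternative made any of the 9 genes fall. The members that rose numbered 3 to 4 over single libraries left out, and 5 with the replicate block, in DESeq2 and with length and GC offsets (Tkt added). The related genes that rose numbered 5 to 6 over single libraries left out, 7 with the replicate block, 6 in DESeq2 and 3 in limma on log2(FPKM + 0.1). There Cbr3 (3.60, SE 1.04, adjusted p = 0.164) and Blvrb (4.27, SE 1.22, adjusted p = 0.159) were lost, with larger folds and errors. Over all genes, 1023 rose and 668 fell with the replicate block, 633 and 294 in DESeq2, 94 and 29 in limma on log2(FPKM + 0.1), 130 and 48 on log2(FPKM + 1), 272 and 229 with length and GC offsets, and 447 and 162 without a filter, against 322 and 106. Leaving out single libraries gave 92 to 427 and 22 to 167: 98 rose and 22 fell without control replicate 1, 92 and 27 without control 3, 94 and 36 without control 4, 111 and 28 without EPS 1, and 167 fell without control 2. The replicate block changed the calls of Tkt, Por and Txnrd3 and of no other named gene. With it, the ratio differences were again 5.15 and 1.57, with an exact sign-flip p of 0.125, the smallest that 4 pairs allow. Over single libraries left out they were 5.06 to 5.25 and 1.32 to 1.74, where no p below 0.0571 is possible. With length and GC offsets, signs turned for Nqo2 (-0.041), Glud1 (-0.045), Rpe (-0.092) and Nadk (-0.086), none past the threshold, and likewise for Nqo2 without control replicate 1 (-0.0099; range -0.0099 to 0.23), Rpe without EPS replicate 4 (-0.043; range -0.043 to 0.14) and Nadk without EPS replicate 3 (-0.031; range -0.031 to 0.18). The cause was not tested. The median over all genes was 0.15 without a filter and -0.12 with the offsets, against 0.01. Depth limits control replicate 2 most: a gene below 8.51 CPM can be at 0 there.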

Other observations

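Same-numbered libraries gave differences of similar size for the genes that rose. For Nqo1 the EPS minus control differences in log2 CPM (prior count 2) were 5.48, 4.77, 5.14 and 5.53 in pairs 1 to 4, and for Pgd they were 2.46, 2.57, 2.03 and 2.00. For Me1 they were 1.53, 1.23, 1.31 and 1.32, and for Taldo1 1.17, 1.53, 1.21 and 0.88. Pair 2 rests on control counts of 2 fragments for Nqo1, 31 for Pgd, 11 for Me1 and 23 for Taldo1. Each of these 4 genes was higher in EPS in 4 of 4 pairs. Tkt was too, at 0.97, 2.67, 0.85 and 0.96, where the value of pair 2 includes the control count of 2 fragments. Nqo2 and Pgls changed sign between pairs, at 0.20, -0.29, 0.21 and 0.20 for Nqo2 and -0.71, 0.54, 0.11 and 0.14 for Pgls.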
